A study of Mus musculus with 6 samples.

Results

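The mouse genes of the amyloid precursor protein (APP) family and of its secretases were measured in cells labelled as skull osteoblasts. One group carried an APP transgene and the other was the control. The group was defined by name as 9 genes, App, Aplp2, Bace1, Bace2, Psen2, Ncstn, Aph1a, Psenen and Adam10, and all 9 of them were found by their symbols among the 17830 genes of the deposited count file. The study placed the Swedish mutant of human APP (APPswe) under control of Cre in bone-forming cells, and compared these cells by bulk RNA sequencing. There were 3 control libraries of genotype mOCN-Cre; Ai9 and 3 APPswe libraries of genotype TgAPPswemOCN-Cre; Ai9, all from mice aged 6 months. Both groups carried the Cre, which was inserted behind the endogenous osteocalcin gene Bglap, and the Ai9 reporter, a tdTomato gene that Cre switches on. The transgene was a human APP cDNA behind the broadly active CAG promoter and a stop cassette that Cre removes. Cells grew out of skull bone chips in culture and were sorted for tdTomato, so the libraries describe cultured cells in which Cre had acted at some time, whether or not the osteocalcin gene was still active. Nothing in the labels ties the 3 libraries of a group to separate animals or cultures, and p-values then measure the spread between these libraries, which may be technical.

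APP and its relatives APLP1 and APLP2 are single-pass membrane proteins that are cut in sequence. An alpha-secretase such as ADAM10 or a beta-secretase such as BACE1 first sheds the large outer part, and the gamma-secretase complex then cuts the remaining stub within the membrane. A beta cut followed by a gamma cut of APP releases amyloid-beta, whereas an alpha cut falls inside the amyloid-beta stretch. The gamma-secretase complex has a catalytic presenilin such as PSEN2, nicastrin (Ncstn), an APH1 protein and PEN-2 (Psenen), and it also cuts Notch receptors and many other membrane stubs.

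In RefSeq on build GRCm38.p6, App lies on the minus strand of chromosome 16 between 84952666 and 85175255, and Bace2, the paralog of Bace1, lies on its plus strand between 97356728 and 97442936. Chromosome 9 holds Aplp2 on the minus strand between 31149557 and 31211848, Bace1 on the plus strand between 45838545 and 45862484, and Adam10 on the plus strand between 70678944 and 70780229. Psen2 and Ncstn lie on the minus strand of chromosome 1, between 180227004 and 180263467 and between 172066013 and 172082789. Aph1a lies on the plus strand of chromosome 3 between 95893921 and 95898592, and Psenen on the minus strand of chromosome 7 between 30561865 and 30563627. The promoter windows of App and Aplp2 are shown because APP is the protein the transgene carries and Aplp2 is the family member that passed the test. Each runs 5′ to 3′ on the gene's own strand from 250 bases before to 50 bases after a RefSeq start, at chr16:85173658-85173957 for App and chr9:31211799-31212098 for Aplp2, and capitals mark GC boxes.
App promoter: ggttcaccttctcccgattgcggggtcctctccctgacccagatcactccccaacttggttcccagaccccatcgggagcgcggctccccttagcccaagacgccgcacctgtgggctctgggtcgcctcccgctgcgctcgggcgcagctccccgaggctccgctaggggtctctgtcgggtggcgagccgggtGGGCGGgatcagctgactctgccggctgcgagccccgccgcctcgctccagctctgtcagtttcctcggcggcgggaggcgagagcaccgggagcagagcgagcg
Aplp2 promoter: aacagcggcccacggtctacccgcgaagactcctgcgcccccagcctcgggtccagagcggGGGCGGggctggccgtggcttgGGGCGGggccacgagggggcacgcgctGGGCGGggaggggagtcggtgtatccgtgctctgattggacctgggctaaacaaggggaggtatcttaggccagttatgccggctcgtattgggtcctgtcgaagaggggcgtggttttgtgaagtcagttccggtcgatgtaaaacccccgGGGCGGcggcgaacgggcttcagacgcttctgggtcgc
The App window held 71.0% G and C and 1 GC box, and the Aplp2 window held 67.0% G and C and 4 GC boxes, against a median of 52.7% G and C over 32851 mouse promoter windows. A GC box was taken as GGGCGG on either strand. RefSeq promoter windows were matched for 7 of the 9 genes, all but Bace1 and Bace2, and some genes had more than 1 window. Among these 9 windows 5 held a GC box, whereas 35.7% of all windows did. None of the 9 held TATAAA on either strand, whereas 13.6% of all windows did, and 4 held ATTGG on either strand, against 37.4% of all windows. These matches describe letters in a window and say nothing of whether a factor binds there.

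The control libraries held 17649704 to 18398392 counts and the APPswe libraries 17263757 to 17555489. A floor of 3 counts then amounts to 0.167 to 0.173 CPM (counts scaled to a common library size), for counting error only. Control replicate 2 stood apart from the other control libraries: it held 2 counts over 4 Y-linked genes against 2257 to 3406 in the other 5 libraries, and 1 count of Bglap against 115 to 204. The study describes the mice of this experiment as male, and this library alone carries the letter S where the other 5 carry an L in their names, and what the letters stand for is not given. Its place among the controls is therefore uncertain. It was kept as labelled, and the counts of called genes are given with and without it. The labelled cell type was set beside 12 osteoblast markers, none of which was at 0 in any library. Their sum was 17566 to 18849 CPM in control against 11644 to 12284 CPM in APPswe libraries. Most of this sum came from Spp1, which fell, and from Col1a1 and Col1a2, which did not pass, whereas the osteoblast transcription factors Runx2 and Sp7 rose (log2 fold change 0.63 and 1.98, edgeR adjusted p = 0.0374 and 0.0205). Control replicate 2 held few counts of several of these markers. It had 3 of Ibsp against 940 to 1468 in the other libraries, and 35 of Alpl against 752 to 1357. Of Dmp1 it had 2, against 254 and 261 in the other controls and 12 to 16 in the APPswe libraries. Dmp1 did not pass (log2 fold change -3.64, edgeR adjusted p = 0.0804). Markers of other cell types were also present and differed between the groups. The 13 macrophage markers summed to 18222 to 25413 CPM in control and 12840 to 13863 CPM in APPswe libraries, and none was at 0. In each library the macrophage sum was above the osteoblast sum, so the presence of osteoblast markers does not settle the cell type. Lyz2 made up most of the macrophage sum, with 9772 to 16084 CPM in control and 7148 to 7879 CPM in APPswe libraries. The 10 skeletal muscle markers summed to 2.66 to 12.3 CPM in control and 175 to 179 CPM in APPswe libraries, the 7 osteoclast markers to 143 to 223 and 646 to 662 CPM, and the 6 endothelial markers to 28.5 to 215 and 13.1 to 15.5 CPM. The endothelial sum of 28.5 CPM came from control replicate 2, against 207 and 215 CPM in control replicates 1 and 3. The highest muscle sum and the lowest osteoclast sum of the controls were also those of control replicate 2. Between 1 and 2 muscle markers were at 0 in each control library and none in APPswe libraries. The part of these cells in the results below was not tested, and in bulk samples fewer cells of a type and less RNA per cell cannot be told apart. Over all 13484 genes tested, 10.5% were called higher and 12.0% lower in the APPswe group, where a call is an adjusted p no larger than 0.05 (edgeR quasi-likelihood test, Benjamini-Hochberg adjustment). Higher genes made up 46.6% of these calls with TMM normalization, 58.9% with library totals alone and between 62.4% and 64.4% with limma on FPKM values.

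The levels of the 9 genes were set side by side in FPKM, which corrects for gene length. App had the highest level in every library, with 354 ± 50.0 FPKM (SD, n = 3) in control and 347 ± 3.74 FPKM (SD, n = 3) in APPswe libraries, and ranked 285 among the genes tested by mean FPKM, within the top 2.11%. Psenen followed with 180 ± 48.3 and 160 ± 1.69 FPKM, then Aplp2 with 142 ± 16.8 and 103 ± 0.998 FPKM, and Ncstn with 92.3 ± 8.66 and 81.8 ± 2.43 FPKM. In control replicate 2 the levels of Psenen and Aplp2 were almost equal, at 124 and 123 FPKM, and their control ranges overlapped. Aph1a was measured at 53.2 ± 1.67 and 53.3 ± 4.44 FPKM. Adam10, with 31.4 ± 4.48 and 31.1 ± 2.45 FPKM, and Psen2, with 31.3 ± 2.84 and 26.6 ± 2.75 FPKM, were neighbours whose order changed between libraries. Psen2 was above Adam10 in control replicates 1 and 3 and below it in the other 4 libraries. The beta-secretases had the lowest levels, with 8.02 ± 0.486 and 11.6 ± 0.629 FPKM for Bace1 and 4.94 ± 0.889 and 3.54 ± 0.367 FPKM for Bace2. Bace1 ranked 6877 and Bace2 9469 among the genes tested. Thus, among the 9 genes, the substrate, the alpha-secretase and all 4 gamma-secretase subunits were above both beta-secretases in each of the 6 libraries. The ordering does not extend to Aph1b and Aph1c, subunit genes outside this group. Aph1b had means of 3.14 FPKM in control and 3.68 FPKM in APPswe libraries, and Aph1c of 8.10 and 7.13 FPKM.

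**Figure D1:**
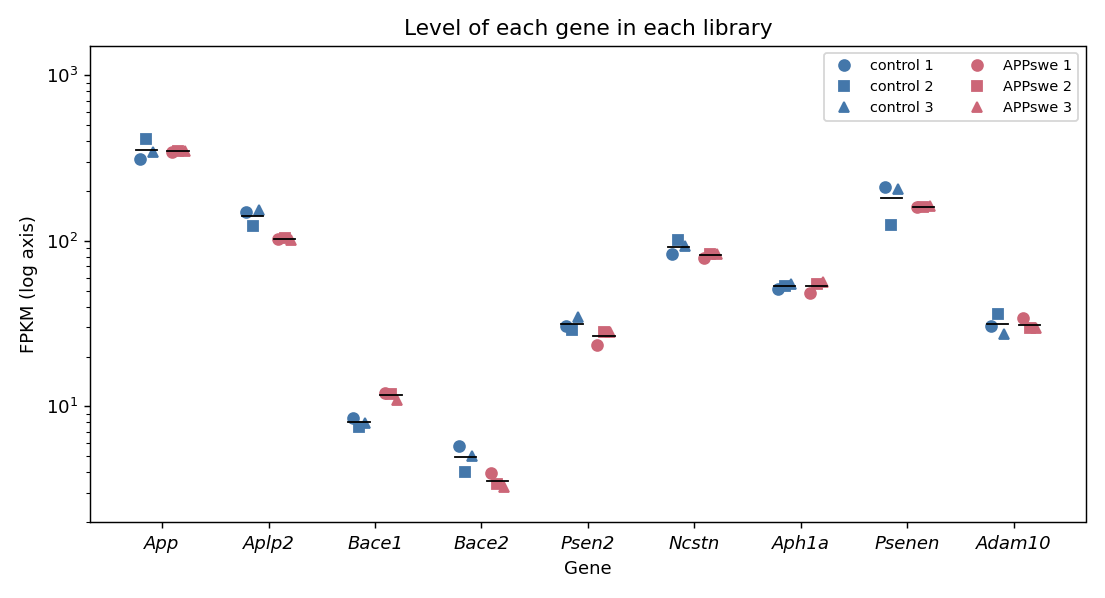
Level of each of the 9 genes in FPKM on a log axis, with 1 point per library, control in blue and APPswe in red, marker shapes for replicates 1 to 3 and a black line at each group mean. App sits highest and the beta-secretases lowest in every library, the APPswe points of Bace1 lie above its control points, and those of Aplp2 lie below.

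Of the 9 genes, 1 rose (Bace1) and 1 fell (Aplp2) in APPswe libraries by this test, and 7 did not pass. These counts correspond to shares close to the 10.5% and 12.0% called over all genes. The median log2 fold change over the 9 genes was -0.25, with a range from -0.55 to 0.46, and over all genes tested it was -0.0033. Control and APPswe values did not overlap for 1 gene that was higher (Bace1), where 22.8% of all genes tested were separated in this direction, and for 4 that were lower (Aplp2, Bace2, Psen2 and Ncstn), where 22.2% were. None of the 9 genes met the thresholds stated for the study, which add a change of 1 or more on the log2 scale to the same adjusted p, whereas 3.74% of all genes met them as higher and 3.60% as lower. At an unadjusted p under 0.05, edgeR found 5 of the 9, where 37.2% of all genes were found. This number was 6 without control replicate 2, 3 with limma or library totals alone and 2 without control replicate 3. The share of all genes was not counted for these alternatives. DESeq2 and limma also gave 0 of 9 under the study's thresholds. Without control replicate 2 the same test called 1 of the 9 higher (Bace1) and 4 lower (Aplp2, Bace2, Psen2 and Psenen), while 23.3% of all genes tested were then called higher and 25.0% lower.

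**Figure D2:**
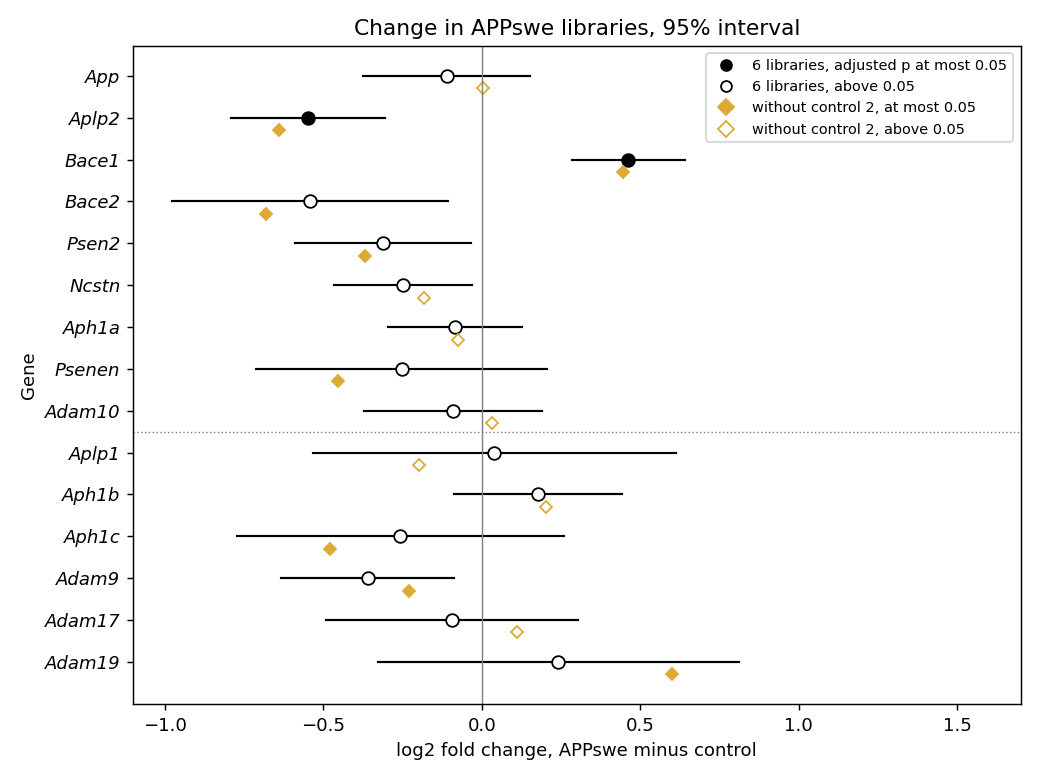
The log2 fold change of APPswe minus control with its 95% interval for the 9 genes (above the dotted line) and 6 further genes of the family and the secretases (below it), from all 6 libraries (circles) and without control replicate 2 (diamonds), filled where the adjusted p is at most 0.05. Bace1 lies to the right of 0 and Aplp2 to the left in both analyses, whereas Bace2, Psen2 and Psenen are filled without control replicate 2 alone.

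App itself was counted at 983, 1287 and 1088 CPM in control replicates 1, 2 and 3 and at 1015, 1048 and 1048 CPM in APPswe replicates 1, 2 and 3. The APPswe values lay inside the control range, whose highest value came from control replicate 2. The log2 fold change was -0.11 (SE 0.11, 95% interval -0.37 to 0.15, edgeR adjusted p = 0.507), and without control replicate 2 it was 0.01 (adjusted p = 0.953). App took between 0.0964% and 0.126% of all counts in a library. The file has no separate count for the human transgene, and whether its reads could be assigned to mouse App is not given in the sources used here, so this value does not test the genotype labels.

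The homolog Aplp2, whose product is cut by the same secretases and overlaps with APP in function, fell in APPswe libraries. It was counted at 512, 425 and 537 CPM in the control libraries and at 332, 340 and 335 CPM in the APPswe libraries. Every APPswe value was below every control value, and control replicate 2 was the lowest of the controls. The level fell by 31.6%, a log2 fold change of -0.55 (SE 0.10, 95% interval -0.79 to -0.31, edgeR adjusted p = 0.0123). The call held without each control library, with an adjusted p of 6.26e-06 without control replicate 2, but without APPswe replicate 1, 2 or 3 the adjusted p rose to 0.0576, 0.0655 and 0.0676 at an almost equal size. Aplp1, the family member best known from neurons, was present at 18.2 ± 5.96 FPKM (SD, n = 3) in control and 19.7 ± 1.12 FPKM in APPswe libraries. Its log2 fold change was 0.04 (SE 0.24, edgeR adjusted p = 0.921), and control replicate 2 had the lowest count, 450 against 682 to 908 in the other libraries.

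Bace1, which encodes the main beta-secretase of APP, rose in APPswe libraries. It was counted at 31.5, 30.2 and 31.3 CPM in the control libraries and at 43.5, 43.9 and 40.7 CPM in the APPswe libraries. The groups did not overlap, and control replicate 2 lay with the other controls. The rise of 37.7% corresponds to a log2 fold change of 0.46 (SE 0.07, 95% interval 0.28 to 0.64, edgeR adjusted p = 0.00763). The adjusted p was 0.000783 without control replicate 2 and 0.0547 without APPswe replicate 2. In the GENCODE M21 annotation 32.5% of the exonic bases of Bace1 are overlapped by genes on the other strand, among them the protein-coding Rnf214, and whether the counting used strand is not given in the sources used here. Rnf214 itself had 56.0 ± 4.08 CPM in the control and 53.3 ± 2.61 CPM in the APPswe group (SD, n = 3 each), and its log2 fold change was -0.07 (SE 0.09, edgeR adjusted p = 0.576). The other overlapping genes were not analysed here, and the part of such reads in the Bace1 count was not tested.

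Bace2, whose product cuts APP mainly inside the amyloid-beta stretch and other membrane proteins, moved the other way in value. It was counted at 9.30, 6.30 and 8.24 CPM in the control libraries and at 5.83, 5.40 and 5.11 CPM in the APPswe libraries. The groups did not overlap, although control replicate 2 lay close to the APPswe libraries. The log2 fold change of -0.54 (SE 0.18, 95% interval -0.98 to -0.11) did not pass with all libraries (edgeR adjusted p = 0.0764), and it was -0.68 with an adjusted p of 0.0015 without control replicate 2. Raw counts of Bace2 were between 91 and 161 per library, the fewest among the 9 genes.

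Of the gamma-secretase subunits, none of the 4 genes passed the test with all libraries, and all 4 had log2 fold changes below 0. Psen2, a catalytic presenilin, was counted at 54.7, 51.4 and 62.0 CPM in the control libraries and at 39.3, 48.1 and 48.0 CPM in the APPswe libraries. The groups did not overlap, and APPswe replicate 1 was the lowest. Its log2 fold change was -0.31 (SE 0.12, 95% interval -0.59 to -0.04, edgeR adjusted p = 0.10). It passed without control replicate 2, at -0.37 with an adjusted p of 0.0115, and with the name style of the libraries as a covariate, at -0.40 with an adjusted p of 0.0166.

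Ncstn, the subunit that receives substrates, was counted at 221, 267 and 250 CPM in the control libraries and at 198, 212 and 211 CPM in the APPswe libraries. The groups did not overlap, with control replicate 2 the highest. Its log2 fold change was -0.25 (SE 0.09, 95% interval -0.47 to -0.03, edgeR adjusted p = 0.0967), and it did not pass in any alternative. Aph1a, a scaffold subunit, was counted at 151, 159 and 163 CPM in the control libraries and at 133, 154 and 159 CPM in the APPswe libraries. These values overlapped, and the log2 fold change was -0.08 (SE 0.09, 95% interval -0.30 to 0.13, edgeR adjusted p = 0.531). Psenen, whose product completes the complex, was counted at 89.5, 52.9 and 86.5 CPM in the control libraries and at 62.6, 64.1 and 65.4 CPM in the APPswe libraries. Control replicate 2 was the lowest of all 6 libraries, and the other 2 controls were the highest. With all libraries the log2 fold change was -0.25 (SE 0.19, 95% interval -0.71 to 0.21, edgeR adjusted p = 0.381), and without control replicate 2 it was -0.46 with an adjusted p of 0.000226. Aph1b and Aph1c, near-identical copies whose reads the counting could split between them, had log2 fold changes of 0.18 and -0.26 (edgeR adjusted p = 0.290 and 0.430) and are uncertain.

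Adam10, the main constitutive alpha-secretase of APP, was counted at 134, 161 and 122 CPM in the control libraries and at 141, 126 and 125 CPM in the APPswe libraries. The groups overlapped, and control replicate 2 was again the highest. The log2 fold change was -0.09 (SE 0.12, 95% interval -0.37 to 0.19, edgeR adjusted p = 0.618), and without control replicate 2 it was 0.03 (adjusted p = 0.753). The related sheddases did not pass either. Adam9 had 367 ± 54.4 CPM in the control and 286 ± 7.77 CPM in the APPswe group (SD, n = 3 each, log2 fold change -0.36, edgeR adjusted p = 0.0655), Adam17 had a log2 fold change of -0.09 (adjusted p = 0.724) and Adam19 of 0.24 (adjusted p = 0.502). Without control replicate 2, Adam9 and Adam19 passed, at -0.23 and 0.60 with adjusted p of 0.00975 and 4.54e-05, and control replicate 2 exceeded the mean of the other controls by 0.88 on the log2 scale for Adam19 and by 0.54 for Adam17.

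Ratios of FPKM within a library do not depend on its depth. The ratio of Bace1 to Bace2 was 1.47, 1.88 and 1.59 in the control libraries and 3.06, 3.50 and 3.34 in the APPswe libraries, without overlap. Bace1 relative to Adam10 was 0.278, 0.208 and 0.291 in the control libraries and 0.356, 0.401 and 0.367 in the APPswe libraries, again without overlap. Thus in all APPswe libraries more Bace1 transcript was measured relative to both Bace2 and Adam10 than in any control library. App relative to Aplp2 was 2.09, 3.34 and 2.22 in the control libraries and 3.34, 3.38 and 3.43 in the APPswe libraries. Control replicate 2 had the same ratio as APPswe replicate 1 to 3 significant digits, and the other control ratios were lower. Aplp1 relative to Aplp2 was 0.0945 to 0.151 in control and 0.181 to 0.201 in APPswe libraries. The ratios of Psen2, Aph1a and Psenen to Ncstn overlapped between the groups, and Psenen to Ncstn was 1.24 in control replicate 2 against 1.91 to 2.53 in the other libraries. No test was run on these ratios.

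**Figure D3:**
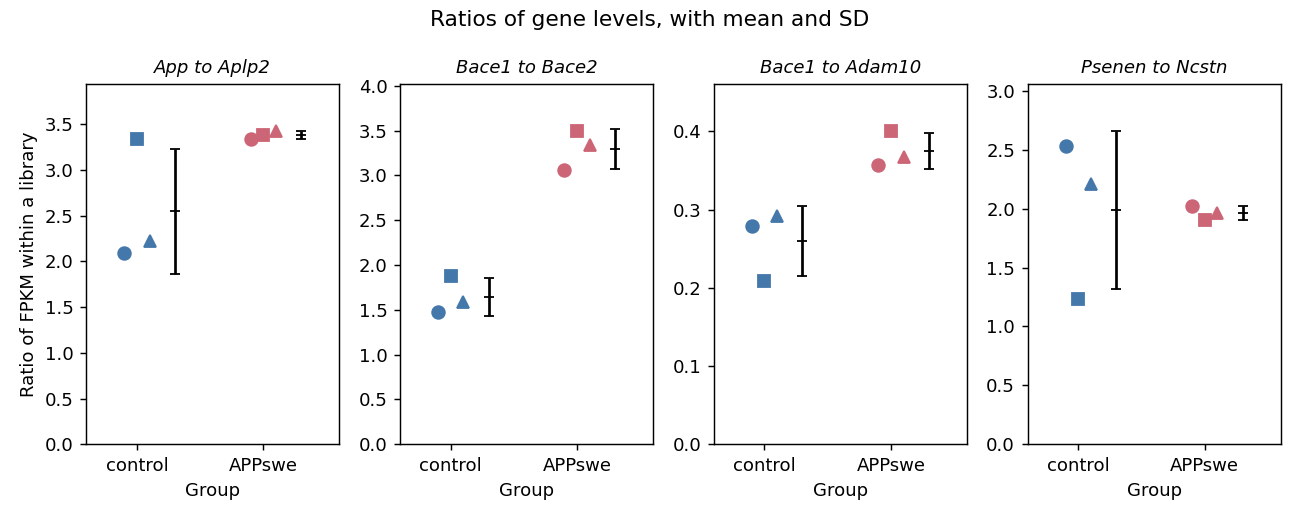
Ratios of FPKM within each library for App to Aplp2, Bace1 to Bace2, Bace1 to Adam10 and Psenen to Ncstn, with axes from 0, 1 point per library (circles, squares and triangles for replicates 1, 2 and 3) and the mean with its SD (n = 3) beside each group. Bace1 to Bace2 and Bace1 to Adam10 are separated between the groups, control replicate 2 meets the APPswe level in App to Aplp2, and Psenen to Ncstn overlaps.

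The libraries carry names in 2 styles, shared by control replicates 1 and 2 with APPswe replicate 1 and by control replicate 3 with APPswe replicates 2 and 3. Within these sets the log2 difference of APPswe minus control was 0.49 and 0.43 for Bace1, -0.49 and -0.67 for Aplp2, -0.39 and -0.64 for Bace2, and -0.43 and -0.37 for Psen2. For App it was -0.15 and -0.05, and for Adam10 it was -0.06 and 0.04, which differ in sign. Across the 6 libraries App varied less than most genes, at percentile 19.7 of the SD of log2 CPM over the genes tested, as did Aph1a (9.69), Adam10 (24.2) and Ncstn (28.8), whereas Aplp2 and Bace2 stood at 64.6 and 67.8. The genes whose pattern was most like that of App were Dcaf7, Ddx23, Sap130, Vps8 and Epb41l2, with root mean square distances between 0.0199 and 0.0248 in log2 CPM centred on each gene's own mean over the 6 libraries. Among the other 8 members Ncstn was the closest to App, at a distance of 0.0865 and rank 534, followed by Adam10 at 0.110 and Aph1a at 0.119.

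Other genes of APP biology were followed in 8 lists, of which 121 of 124 genes were in the file and 112 passed the filter on low counts. Of these 112 genes, 9 (8.04%) rose and 34 (30.4%) fell, against 10.5% and 12.0% of all genes tested, and their median log2 fold change was -0.13. Without control replicate 2, 22 of 113 (19.5%) rose and 52 (46.0%) fell, against 23.3% and 25.0% of all genes. With library totals alone 11 rose and 28 fell, against 13.6% and 9.54% of all genes. The number that fell ranged from 12 to 52 when 1 library was left out. The lowest number came without APPswe replicate 2 or 3, where 4 of the genes rose and 12 fell. Over all genes tested, 3.69% rose and 3.90% fell without APPswe replicate 2, and 3.49% and 3.96% without APPswe replicate 3. Of 13 macrophage markers, 7 fell and 1 rose (Aif1, log2 fold change 1.18, edgeR adjusted p = 0.0205). Their median log2 fold change was -0.62. Without control replicate 2, 10 fell and 2 rose, and without APPswe replicate 1 or 2, 2 fell and 0 rose. Most of the passing macrophage markers thus moved in the same direction as these lists, but other marker lists differed. With all libraries, 5 osteoclast markers rose and 0 fell, and 9 skeletal muscle markers rose and 0 fell. Of fibroblast markers 3 rose and 1 fell, and of osteoblast markers 2 rose and 1 fell. Of endothelial and of neural markers, 0 rose and 1 fell in each list. The part of any of these cells in the counts was not tested.

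Regulators of ADAM proteases included 5 of 14 genes that fell and 1 that rose, against 12.0% and 10.5% of all genes tested. Leaving out control replicate 2, 7 fell and 2 rose, against 25.0% and 23.3%. Without any 1 of the APPswe libraries 3 fell and 0 rose, where 3.90% to 5.08% of all genes fell and 3.49% to 4.91% rose. Timp2, a secreted inhibitor of metalloproteases, fell from 2937 ± 512 to 1222 ± 19.5 CPM (SD, n = 3 in each group), a log2 fold change of -1.26 (SE 0.14, edgeR adjusted p = 0.00193). Tspan5 and Tspan15, tetraspanins that escort ADAM10, fell, with log2 fold changes of -0.70 and -2.06 (edgeR adjusted p = 0.00395 and 0.0154). Frmd8, which stabilizes the iRhom and ADAM17 complex, fell with a log2 fold change of -0.60 (adjusted p = 0.00475). Tspan33, another such tetraspanin, rose from 0.285 ± 0.155 to 1.38 ± 0.365 CPM (log2 fold change 2.25, edgeR adjusted p = 0.0136) at very low counts. The calls of Tspan15 and Tspan33 were lost without each APPswe library, at adjusted p of up to 0.0791 and 0.0751. Timp1, the most abundant gene of this list, had a log2 fold change of 0.29 (adjusted p = 0.151).

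Of 25 sorting factors of APP and BACE1, 8 fell and 1 rose with all libraries, against 12.0% and 10.5% of all genes. When control replicate 2 was left out, 12 fell and 3 rose, against 25.0% and 23.3%. Without APPswe replicate 2 or 3 only 1 fell and 1 rose, where 3.90% to 3.96% of all genes fell and 3.49% to 3.69% rose. With library totals alone 5 fell and 1 rose, against 9.54% and 13.6%. Picalm, a clathrin adaptor and an Alzheimer's disease risk gene, rose from 265 ± 13.4 to 453 ± 35.1 CPM (SD, n = 3 in each group), a log2 fold change of 0.78 (SE 0.09, edgeR adjusted p = 0.00229). Sorl1, a sorting receptor that returns APP from endosomes, fell from 37.7 ± 5.20 to 20.4 ± 1.69 CPM, a log2 fold change of -0.88 (SE 0.13, edgeR adjusted p = 0.00519). Both calls held in all 16 alternatives. Rtn4, of a family that binds BACE1, fell as well (log2 fold change -0.51, edgeR adjusted p = 0.0108). So did Lrp10 (-0.60, adjusted p = 0.0205), the endocytic receptor Lrp1 (-0.58, adjusted p = 0.0418) and the retromer subunit Vps35 (-0.53, adjusted p = 0.0325). Each of these 4 calls was lost without APPswe replicate 2 or 3, those of Lrp10, Lrp1 and Vps35 also without APPswe replicate 1, those of Lrp10 and Vps35 without control replicate 1, and those of Lrp10 and Lrp1 without control replicate 3, with adjusted p between 0.0542 and 0.148. Tmed2, an abundant cargo receptor of the early secretory path, had a log2 fold change of 0.22 (adjusted p = 0.109).

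Of 15 cytoplasmic partners of APP, 7 fell and none rose in edgeR with all libraries, against 12.0% and 10.5% of all genes tested. In the same test 9 of 16 fell and 1 rose without control replicate 2, against 25.0% and 23.3%. Without APPswe replicate 2 or 3, 3 fell, where 3.90% to 3.96% of all genes fell. Fbxl2, a ubiquitin ligase subunit, fell from 18.7 ± 3.05 to 9.01 ± 1.16 CPM (SD, n = 3 in each group), a log2 fold change of -1.05 (SE 0.17, edgeR adjusted p = 0.00741). The JNK scaffold Mapk8ip1 fell (log2 fold change -0.75, adjusted p = 0.00742), as did the Fe65-like adaptor Apbb2 (-0.52, adjusted p = 0.00451), and the calls of Fbxl2, Mapk8ip1 and Apbb2 held in all 16 alternatives. The endocytic adaptors Numb and Dab2 fell with log2 fold changes of -0.52 and -0.46, the Mint adaptor Apba1 with -0.48 and the signalling adaptor Grb2 with -0.33 (edgeR adjusted p = 0.0126, 0.0226, 0.0307 and 0.0229). Each of these 4 calls was lost without APPswe replicate 2 or 3, those of Numb, Apba1 and Grb2 also without APPswe replicate 1, and those of Apba1, Dab2 and Grb2 without control replicate 1 or 3, with adjusted p between 0.0505 and 0.120.

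Among other proteases that can cut APP, 4 of 9 fell and 2 rose with all libraries, against 12.0% and 10.5% of all genes tested. These numbers were 4 and 3 without control replicate 2, against 25.0% and 23.3%. Without APPswe replicate 2 or 3, 1 fell and 0 rose, where 3.90% to 3.96% of all genes fell and 3.49% to 3.69% rose. Ctsb, the lysosomal protease cathepsin B, fell from 11206 ± 1089 to 5651 ± 119 CPM (SD, n = 3 in each group), a log2 fold change of -0.99 (SE 0.09, edgeR adjusted p = 0.00139), and the call held in all 16 alternatives. The membrane-type metalloproteases moved apart. Mmp14 rose with a log2 fold change of 0.38, while Mmp15 fell with -1.29 and Mmp16 with -1.09 (edgeR adjusted p = 0.0169, 0.0174 and 0.0197). Casp6, a caspase, rose by 0.61 (adjusted p = 0.0125), and Lgmn, a lysosomal asparagine endopeptidase also called delta-secretase, fell (-0.34, adjusted p = 0.0466). The calls of Mmp14, Mmp15, Mmp16, Casp6 and Lgmn were lost without APPswe replicate 2 or 3, those of Mmp16, Casp6 and Lgmn also without APPswe replicate 1, those of Mmp14, Mmp15 and Lgmn without control replicate 1, and those of Mmp15 and Lgmn without control replicate 3, with adjusted p between 0.0516 and 0.155.

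Of 36 other substrates of the secretases, 9 (25.0%) fell and 5 (13.9%) rose, against 12.0% and 10.5% of all genes tested. With library totals alone 7 fell and 7 rose, 19.4% each, against 9.54% and 13.6%. Of the same substrates 14 (38.9%) fell and 11 (30.6%) rose without control replicate 2, against 25.0% and 23.3%. Without APPswe replicate 2 or 3, 4 fell and 3 rose, where 3.90% to 3.96% of all genes fell and 3.49% to 3.69% rose. The adhesion molecules Icam1 and L1cam fell with log2 fold changes of -1.34 and -1.64 (edgeR adjusted p = 0.00420 and 0.0163), as did the proteoglycan Sdc3 (-1.18, adjusted p = 0.00431) and the protocadherin Pcdhgc3 (-1.08, adjusted p = 0.00165). The receptor Ephb2 rose from 11.9 ± 2.58 to 28.6 ± 0.566 CPM (SD, n = 3 in each group), a log2 fold change of 1.26 (SE 0.16, edgeR adjusted p = 0.00340). The call of L1cam was lost without each APPswe library, at adjusted p between 0.0697 and 0.0784. The most abundant substrates, the myeloid receptors Trem2 and Csf1r, had log2 fold changes of -0.50 and -0.07 (adjusted p = 0.127 and 0.832), and both are expressed by macrophages. They passed in opposite directions without control replicate 2. There Trem2 was lower, at -0.70 (edgeR adjusted p = 0.000117), and Csf1r was higher, at 0.23 (edgeR adjusted p = 0.00556).

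**Figure D4:**
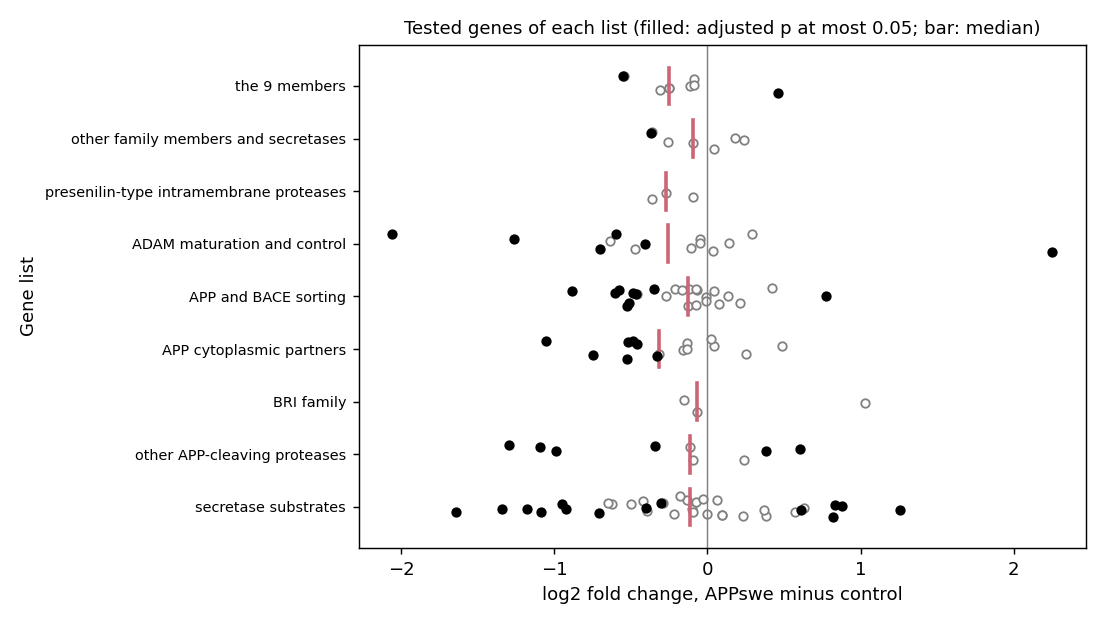
The log2 fold change of APPswe minus control for each tested gene of the 9-member group and the 8 other lists, with 1 point per gene, filled where the adjusted p is at most 0.05, and a red bar at the median of each list (vertical positions within a list are arbitrary). All medians lie below 0, and among the 9 members Bace1 is the filled point to the right and Aplp2 the filled point to the left.

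The signal peptide peptidase-like proteases, which resemble presenilins, had log2 fold changes of -0.36 for Sppl2a and -0.09 for Sppl3 (edgeR adjusted p = 0.0757 and 0.482). In the BRI family, whose member BRI2 (Itm2b) binds APP, Itm2b was measured at a mean of 1167 FPKM, above App, with a log2 fold change of -0.15 (adjusted p = 0.510), and Itm2c had a log2 fold change of -0.07 (adjusted p = 0.789). None of the 3 tested genes of this family passed with all libraries, and their log2 fold changes ranged from -0.15 to 1.03. Without control replicate 2 Itm2b passed at -0.32 with an adjusted p of 0.000807. In that setting 1 gene of the family rose and 2 fell, where 23.3% and 25.0% of all genes tested did.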

How the data were processed

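RNA from 6 libraries was sequenced by the authors on a DNBseq platform after preparation with a SMARTER mRNA-Seq kit. The submitters' processing notes name build GRCm38, and the aligner, the counting tool and its use of strand are not given in the sources used here. The authors deposited raw read counts per gene, without normalization, and FPKM values rounded to 2 decimals, and an empty FPKM cell was treated as 0. The deposited table also holds log2 fold changes and p-values from the authors' own test of the genotypes, which were not used. Sample titles gave the group and the number of each replicate.

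The count analysis used edgeR 4.0.16 in R 4.3.3, with TMM normalization, filterByExpr (13484 of 17830 genes kept) and the quasi-likelihood test without a covariate, with Benjamini-Hochberg adjustment over all genes tested. The standard error was the log2 fold change over the square root of F. CPM values were counts scaled to the TMM-adjusted library size. FPKM served only for levels between genes, for ratios and for limma. Alternatives were library totals or DESeq2 size factors in place of TMM, DESeq2 1.42.0 itself, 2 other filters (none, and at least 10 counts in every library), a replicate block, a covariate for the name style of the libraries, leaving out single libraries, and limma 3.58.1 on log2(FPKM + 1), with and without a minimum mean of 0.5 FPKM, or on log2(FPKM + 0.1). Tested on simulated data for this comparison (13378 genes), edgeR recovered 6 of 100 genes given a log2 change of 0.5 and 56 of 100 given a change of 1, and called 2 unchanged genes, whereas DESeq2 (13484 genes) recovered 34 and 89 of 100 and called 37 unchanged genes. Only these genes were changed, a far smaller share than the 22.5% called in the real libraries. The simulated spread was taken from all 6 libraries, control replicate 2 included. The simulation therefore does not measure recovery in the real libraries.

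All 9 members are named, and from each other list up to 5 passing genes of largest change and up to 2 of highest mean FPKM, with Aplp1, Aph1b, Aph1c, Adam17 and Adam19 added with the rest of the secretase list. Rnf214 was added because it overlaps Bace1. A further gene that the rule names is not reported here. The members and lists were chosen with earlier results of these data known. Coordinates and promoter windows come from RefSeq on GRCm38.p6, and exon overlaps from GENCODE M21 on the same build. Libraries of 1 group differed by more than sampling noise, least so APPswe replicates 2 and 3, and were each counted as a replicate. The chi-square per degree of freedom was 1.57 between APPswe replicates 2 and 3, and 7.10 and 7.60 between these and APPswe replicate 1. It was 5.94 between control replicates 1 and 3, and 72.9 and 77.2 between these and control replicate 2.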

Additional observations from a re-analysis of the deposited data

How the results depend on the processing

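Over the 9 members and 16 alternatives, 134 of the log2 fold changes kept their direction and their side of the threshold, 4 lost the threshold, 4 passed it and 2 changed sign. The fall of Aplp2 ranged from -0.64 to -0.46 and the rise of Bace1 from 0.45 to 0.53. The number of members called was 0 to 5 when 1 library was left out (0 without APPswe replicate 2, 5 without control replicate 2). Over all genes, 3036 were called by adjusted p alone, and 1024 to 6637 with 1 library left out. With the study's fold threshold they numbered 990, 511 to 1575 with 1 library left out, 510 with limma on log2(FPKM + 1) and 475 with limma without a filter. Samples of the 2 groups share replicate numbers, and the deviations of same-numbered samples from their group means correlated at 0.074, -0.036 and 0.158. Not every sample correlated best with its own number. Control replicate 3 correlated at -0.220, 0.116 and 0.158 with APPswe replicates 1, 2 and 3, and these signs follow the name styles. Deviations within a group sum to 0, so the correlations depend on one another and cannot decide whether samples were paired. With the replicate block 2021 genes were called, 2 of the 9 members among them, and Aplp2 and Bace1 had adjusted p of 0.0395 and 0.0336.

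With 1 library left out, the log2 fold change of App ranged from -0.20 to 0.0051, of Adam10 from -0.18 to 0.032, of Aplp1 from -0.20 to 0.26, of Adam17 from -0.22 to 0.11 and of Csf1r from -0.22 to 0.23, each changing sign without control replicate 2, and of Itm2c from -0.23 to 0.056, changing sign without control replicate 3. The sign also changed for Aplp1, Adam17 and Csf1r with the name style (-0.058, 0.022 and 0.0018), for Itm2c with library totals (0.0024), and with limma for Adam17 (0.0017, 0.0023 and 0.0017), Sppl3 (0.012), Itm2c (0.027) and Csf1r (0.047). The cause was not tested. With library totals alone the calls of Lrp1, Vps35 and Lgmn were lost (adjusted p = 0.0580, 0.0545 and 0.0780). Calls were also lost with limma for Lrp1, Vps35, Apba1, Dab2, Grb2 and Lgmn (0.0597 to 0.106) and, without a filter, for Mmp16 (0.0551), with the replicate block for Vps35, Apba1, Grb2, Lgmn, Mmp15 and Tspan33 (0.0510 to 0.0834), with the name style for Lrp1, Vps35 and L1cam (0.0511 to 0.0775), and with another filter for Lrp1 and Lgmn (0.0524 to 0.0558). Without control replicate 2, Aph1c, Sppl2a, Itm2c, Timp1 and Tmed2 passed (adjusted p = 0.00044, 0.0227, 0.0204, 0.0492 and 0.0467), and with DESeq2 Adam9 and Sppl2a passed (0.0303 and 0.0484). In the simulated data, how often a change under 2-fold was called with 3 libraries a group depended on the tool. Counting strand was not stated.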
